A study of Mus musculus with 96 samples.

Results

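The RNA of 9 glucocorticoid-responsive genes was followed through a day in forebrain, cerebellum, liver and kidney of undisturbed and sleep-deprived mice. The 9 genes are Fkbp5, Sgk1, Tsc22d3, Klf9, Zbtb16, Cdkn1a, Nr3c1, Hsd11b1 and Pdk2. They were chosen by name, with earlier results of these data known. The 9 were found by their Ensembl identifiers in the GENCODE M21 annotation. They were 9 of 54833 features in the count table, of which 49326 had a symbol there. Each of the 9 passed the filter on low counts in each of the 4 tissues.

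Glucocorticoids are adrenal steroid hormones, chiefly corticosterone in mice, whose blood level rises before the active phase of the day and under stress. Inside the cell the hormone binds the glucocorticoid receptor, a nuclear receptor that moves to the nucleus and switches target genes on or off at short DNA elements. In liver the pathway is known for driving glucose production, in kidney for its overlap with mineralocorticoid control of sodium, and in brain for feedback on the stress axis. Nr3c1 encodes the receptor, and Hsd11b1 an enzyme that regenerates active hormone from its inactive form. Fkbp5 (a co-chaperone that lowers the receptor's affinity for hormone), Sgk1 (a kinase that regulates sodium channels), Tsc22d3 (the anti-inflammatory protein GILZ), Klf9 and Zbtb16 (transcription factors) and Cdkn1a (the cell-cycle inhibitor p21) are known induced targets, and Pdk2 is a kinase that restrains pyruvate dehydrogenase.

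The mice were wild-type C57BL/6 males aged 6 to 8 weeks, kept on 12 h of light and 12 h of darkness. Tissues were taken in constant darkness, according to the study, and times are circadian times. Control mice (CON) were undisturbed, and sleep-deprived mice (SD) were made to walk in a turning drum for 10 h of the phase in which mice normally rest, with food and water in reach, so that SD included forced locomotion. Forebrain, cerebellum, liver and kidney were collected at CT4, CT8, CT12, CT16, CT20 and CT24, where CT is circadian time in hours, and 2 replicates for each tissue, condition and time gave 96 libraries. The hours between the end of SD and each CT are not given in the sources used here. Neither is whether replicates of the same number in different tissues came from the same mouse, so p-values measure the spread between these libraries.

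Libraries held 24.8 to 58.5 M counted reads (M for mega), with a median of 33.7 M. The tissue labels were checked with marker genes. The sum of 5 hepatocyte markers was at least 67481 CPM (the count divided by the library total and scaled to the usual CPM unit) in liver, most of it from Alb at 56244 CPM or more, while 1 of the 5, Serpina1c, held at most 0.0592 CPM there. Elsewhere, 3 proximal tubule markers summed to at least 11464 CPM in kidney, 3 forebrain neuron markers to at least 96.1 CPM in forebrain and 3 granule cell markers to at least 1768 CPM in cerebellum. The hepatocyte sum also reached 1705 CPM in CON cerebellum (median 6.41) and 2773 CPM in SD cerebellum (median 640). In forebrain it reached 95.1 CPM in CON (median 4.31) and 296 CPM in SD (median 4.91). Its source in these brain libraries was not tested. In 20 of the 24 kidney libraries the sample title and the listed characteristics disagreed on condition or time, and the titles were used. The cerebellum CON CT8 replicate 1 library stood apart, with 3.596% of its counts on antisense genes against 0.831% to 0.979% in the other cerebellum libraries, and a median correlation of 0.881 with the rest of its tissue against 0.985 to 0.994. The kidney CON CT8 replicate 1 library held 12.4 CPM of 6 adrenal cortex markers, where the next highest kidney library held 1.72 CPM.

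Positions are those of the GRCm38 build. Fkbp5 spans chr17:28399094-28517527 and Cdkn1a chr17:29090976-29100727. Sgk1 spans chr10:21882184-21999903, Tsc22d3 chrX:140539528-140600659, Klf9 chr19:23141226-23168134, Zbtb16 chr9:48654297-48836222, Hsd11b1 chr1:193221634-193264075 and Pdk2 chr11:95026258-95041354. Exons of Cdkn1a shared 273 bases with an annotated transcript on the opposite strand, and no exon of the other 8 genes overlapped an annotated gene.

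Promoter windows of 300 bases (250 before and 50 after an annotated start, RefSeq, GRCm38.p6) were searched on both strands for the receptor's short motif AGAACA, for its palindrome (AGAACA, any 3 bases, TGTTCT) and for the clock motif CACGTG, the E-box bound by CLOCK and BMAL1. AGAACA was present in 19.0% of 32851 windows of this length, CACGTG in 7.15%, and the palindrome in 3 windows (0.00913%). Zbtb16 and Nr3c1 had no sequence used here. Of the other 7 genes, Fkbp5, Sgk1, Tsc22d3 and Pdk2 had a match in the 250 bases before a start, and Klf9, Cdkn1a and Hsd11b1 had none in these letters. The shares above are per window, and a gene could have several windows, as Sgk1 with 6. A count of genes with a match is therefore not comparable with those shares. The 4 windows below hold matches, 1 window for each of the 4 genes with a match. Matching letters are in capitals, and the last base of each run lies just before the start. A match is a description of the sequence only, and 1 of the 3 windows with a palindrome was that of Sgk1.
Fkbp5, chr17:28486150-28486399, minus strand: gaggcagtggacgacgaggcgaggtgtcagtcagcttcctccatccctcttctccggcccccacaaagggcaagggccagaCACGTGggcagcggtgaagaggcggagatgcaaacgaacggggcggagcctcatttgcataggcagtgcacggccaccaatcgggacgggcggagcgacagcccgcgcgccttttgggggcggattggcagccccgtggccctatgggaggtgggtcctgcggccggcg
Sgk1, chr10:21993640-21993889, plus strand: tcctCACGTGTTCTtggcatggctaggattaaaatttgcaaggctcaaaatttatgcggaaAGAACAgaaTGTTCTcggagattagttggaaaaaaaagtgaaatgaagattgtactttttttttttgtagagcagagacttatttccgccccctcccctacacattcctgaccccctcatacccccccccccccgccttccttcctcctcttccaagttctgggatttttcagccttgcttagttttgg
Tsc22d3, chrX:140600523-140600772, minus strand: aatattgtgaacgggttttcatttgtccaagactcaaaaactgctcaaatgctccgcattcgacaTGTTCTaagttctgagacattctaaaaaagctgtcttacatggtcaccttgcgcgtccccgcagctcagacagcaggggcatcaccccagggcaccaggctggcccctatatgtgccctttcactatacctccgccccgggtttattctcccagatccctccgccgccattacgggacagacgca
Pdk2, chr11:95041372-95041621, minus strand: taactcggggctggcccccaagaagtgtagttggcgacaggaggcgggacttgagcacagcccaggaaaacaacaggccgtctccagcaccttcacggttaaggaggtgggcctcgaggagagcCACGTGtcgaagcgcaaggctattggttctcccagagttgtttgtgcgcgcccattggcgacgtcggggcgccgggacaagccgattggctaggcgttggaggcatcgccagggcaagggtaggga

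In the Sgk1 window the palindrome began 189 bases before the start, with AGAACA there and its reverse complement at 180 bases. Another reverse complement began at 242 bases and overlapped the E-box that began at 246 bases. Another 2 of the 6 Sgk1 windows, not printed above, each held 1 match and no E-box. These were a reverse complement at 195 bases and AGAACA at 13 bases before their starts. The Tsc22d3 match, also a reverse complement, lay 185 bases before the start, in 1 of its 3 windows. The E-boxes of Fkbp5 and Pdk2 began 169 and 126 bases before their starts.

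The first comparison asked how much of each gene's RNA the 4 undisturbed tissues held. Levels between genes are given as RPKM (CPM per kilobase of exon). Hsd11b1 in liver was the highest of all, at 90.4 ± 10.1 RPKM (SD, n = 12), and Fkbp5 in cerebellum the lowest, at 0.953 ± 0.509 RPKM. Klf9 was abundant everywhere, from 33.0 ± 9.27 RPKM in liver to 60.7 ± 8.47 RPKM in kidney. The receptor gene Nr3c1 ranged from 18.8 ± 1.27 RPKM in cerebellum to 28.0 ± 1.87 RPKM in kidney. The remaining values below are CPM, which compare 1 gene between libraries.

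**Figure D1:**
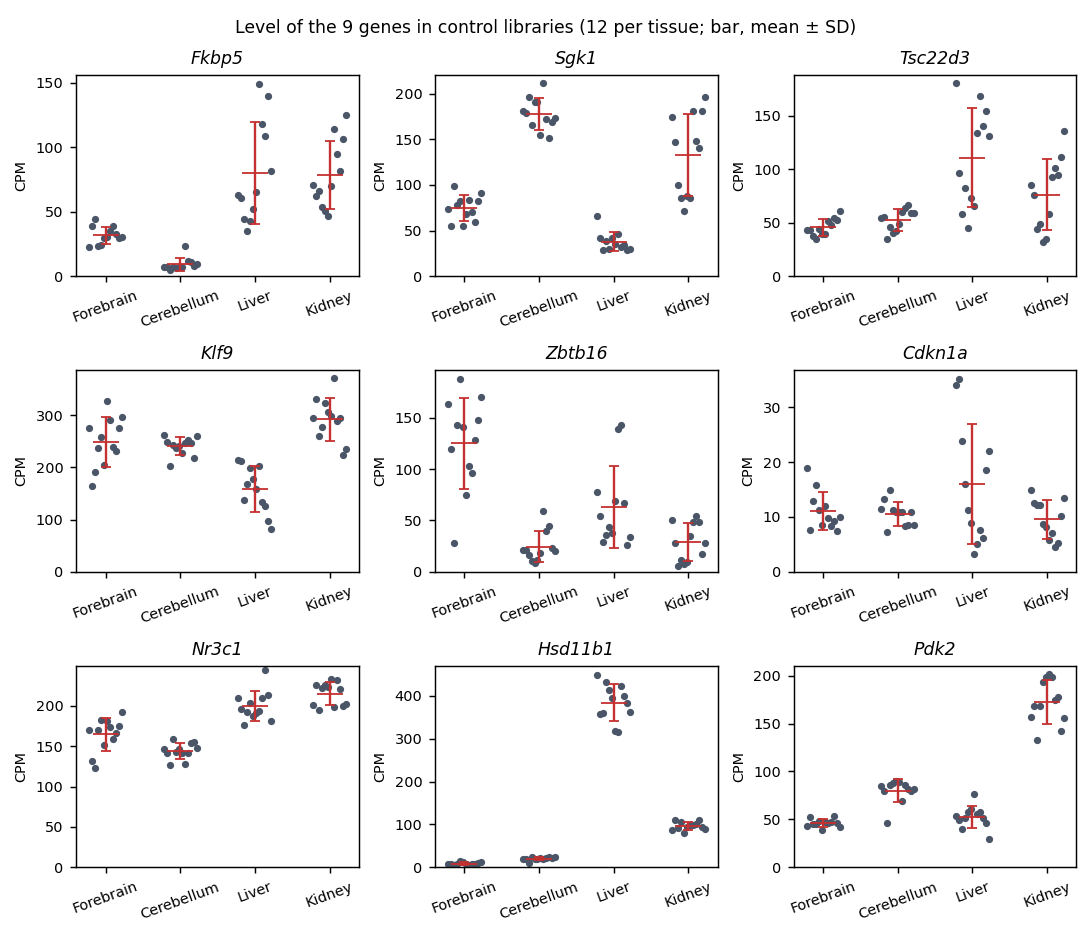
Levels of the 9 genes in the 12 control libraries of each tissue, in CPM on linear axes that start at 0, with 1 point per library and bars for the mean ± SD. Hsd11b1 is far higher in liver (mean 384 CPM) than in forebrain (8.47 CPM), while the Nr3c1 points lie between 122 and 244 CPM in all 4 tissues.

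Differences in level between tissues were tested in the 48 control libraries with the edgeR quasi-likelihood test. Members differed at an adjusted p under 0.05 in 6 of 9 cases for cerebellum against forebrain (70.3% of all genes tested), 8 for liver against forebrain (85.9%), 8 for kidney against forebrain (85%), 7 for liver against cerebellum (87.8%), 6 for kidney against cerebellum (87.1%) and 9 for kidney against liver (68.6%). The differences are given gene by gene.

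Of the hormone supply genes, Hsd11b1 fell in the order liver (384 ± 42.8 CPM), kidney (96.4 ± 9.50), cerebellum (20.1 ± 3.61) and forebrain (8.47 ± 2.87; SD, n = 12 each). Each step passed the test, and the liver lay 6.10 above the forebrain on the log2 scale (SE 0.15, adjusted p = 5.59e-36). Nr3c1 was higher in kidney (215 ± 14.4 CPM) and liver (200 ± 18.1) than in forebrain (165 ± 20.7) and cerebellum (144 ± 9.78). Its liver and kidney order depended on the scaling: with TMM factors the fit put liver 0.41 above kidney (SE 0.07, adjusted p = 5.24e-07), and with library sizes alone kidney was 0.11 above liver and the difference was not called.

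Among the induced targets, Fkbp5 was high in liver (80.0 ± 39.3 CPM) and kidney (78.5 ± 26.2), lower in forebrain (31.6 ± 6.70) and lowest in cerebellum (9.02 ± 4.82). The fit with TMM put kidney 0.49 below liver for Fkbp5, and with library sizes alone kidney was 0.02 above it. Sgk1 had another order, with cerebellum (178 ± 17.4 CPM) and kidney (133 ± 44.9) not differing by the test (adjusted p = 0.116), then forebrain (74.9 ± 13.9) and liver (37.6 ± 10.4). Tsc22d3 was highest in liver (111 ± 46.3 CPM), then kidney (76.2 ± 33.0), and did not differ by the test between cerebellum (52.4 ± 10.0) and forebrain (45.7 ± 7.77; adjusted p = 0.903).

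Zbtb16 was highest in forebrain (125 ± 44.5 CPM), followed by liver (63.0 ± 40.0), with kidney (28.6 ± 18.4) and cerebellum (24.4 ± 15.5) not passing the test against each other (adjusted p = 0.199). Klf9 was higher in kidney (292 ± 40.8 CPM) than in forebrain (249 ± 47.6), and its forebrain, cerebellum (241 ± 17.4) and liver (159 ± 44.6) levels did not differ by the test with TMM. Cdkn1a was highest in liver (16.01 ± 10.9 CPM), and forebrain (10.999 ± 3.47), cerebellum (10.6 ± 2.16) and kidney (9.54 ± 3.499) could not be ordered by the test. Pdk2 was highest in kidney (172 ± 22.9 CPM), then cerebellum (80.1 ± 12.1) and liver (52.4 ± 11.6), which did not differ by the test with TMM, and forebrain (46.2 ± 4.09).

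The second comparison asked whether SD changed these genes. The difference averaged over the 6 times was fitted in each tissue on 12 CON and 12 SD libraries, with the time as a factor. Its values are log2 differences, SD minus CON, with TMM scaling. In liver 3 of the 9 members passed an adjusted p of 0.05, where 18.2% of all genes tested did: Klf9 and Pdk2 rose and Cdkn1a fell. In forebrain 0 passed (0.0303% of all genes tested), in cerebellum 0 (0%) and in kidney 0 (2.3%). At an unadjusted p under 0.05 the edgeR test held 1 member in forebrain, 1 in cerebellum and 2 in kidney. All genes at that threshold numbered 1479 of 23078 in forebrain, 757 of 22218 in cerebellum and 2811 of 21528 in kidney. DESeq2 also called 0 members in these 3 tissues.

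**Figure D2:**
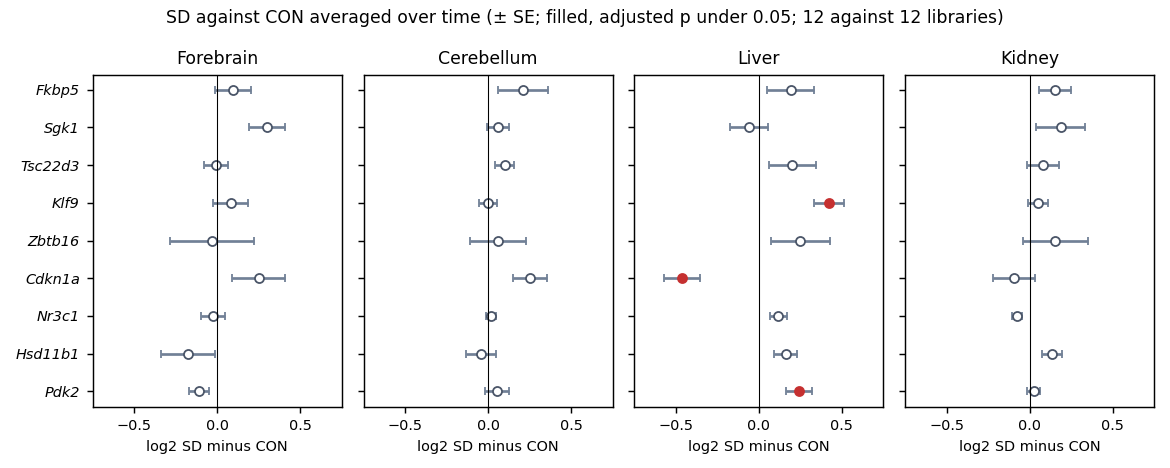
Log2 difference, SD minus CON, averaged over 6 circadian times for each of the 9 genes in each tissue, with bars of 1 SE from the edgeR fit on 12 against 12 libraries and filled points where the adjusted p is under 0.05. The filled points are Klf9 (0.42), Pdk2 (0.24) and Cdkn1a (-0.46) in liver.

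Klf9 in liver ranged from 81.3 to 214 CPM in CON (median 164) and from 110 to 295 CPM in SD (median 196). The ranges overlapped, and the SD mean was the higher at 5 of 6 times. The fitted difference was 0.42 (SE 0.09, adjusted p = 0.00186, edgeR), or 1.34-fold. It was widest at CT16, where the CON libraries held 159 and 202 CPM and the SD libraries 268 and 295 CPM. At CT4 the order was the other way, with 214 and 212 CPM in CON and 203 and 156 CPM in SD. At CT16, CON replicates 1 and 2 and SD replicate 1 had the lowest median correlations with their tissue among liver libraries. These were 0.969, 0.971 and 0.965, beside a liver median of 0.982. Klf9 was also the member called in liver by the joint test of the 6 times (adjusted p = 0.0182), where 1 of 9 members and 3.56% of all genes tested passed.

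Cdkn1a in liver ranged from 3.30 to 35.2 CPM in CON (median 13.6) and from 2.40 to 23.99 CPM in SD (median 9.09). The level varied widely with time, and the SD mean was the lower at 6 of 6 times. At CT4 the CON libraries held 34.0 and 35.2 CPM and the SD libraries 20.2 and 23.99 CPM, and at CT8 the values were 23.8 and 16.1 CPM against 12.01 and 9.71 CPM. The CON and SD pairs did not overlap at those times, nor at CT20, where CON held 7.63 and 6.16 CPM and SD 3.61 and 4.49 CPM. At CT16 they did, with 3.30 and 5.09 CPM against 2.40 and 3.77 CPM. Averaged over time Cdkn1a fell by 0.46 on the log2 scale (SE 0.11, adjusted p = 0.00472, edgeR), to 0.725 of the CON level. The joint test of the 6 times gave an adjusted p of 0.185 in edgeR and of 0.0242 in DESeq2.

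Pdk2 in liver ranged from 29.3 to 76.7 CPM in CON (median 52.4) and from 46.3 to 62.8 CPM in SD (median 57.2). The SD libraries lay inside the range of the controls. The fitted difference was 0.24 (SE 0.08, adjusted p = 0.0344, edgeR), and its call was lost without any 1 of 13 of the 24 libraries and with library sizes alone (0.10, adjusted p = 0.322).

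The scaling mattered for all liver differences. The TMM log2 factors averaged 0.07 in CON and -0.07 in SD liver, so that equal CPM came out higher in SD on the fitted scale, and library sizes alone moved the median over all genes tested from 0.01 to -0.13. The liver calls split into 1857 higher and 1735 lower with TMM and into 358 higher and 3763 lower without it. Klf9 (0.28) and Cdkn1a (-0.60) were called under both scalings. Leukocyte markers also moved with the condition. The sum of 6 such markers, none of them at 0, was 92.1 to 179.9 CPM in CON liver (median 111.3) and 43.0 to 80.7 CPM in SD liver (median 63.9), with no overlap, and its part in the liver differences was not tested. In bulk tissue, fewer cells of a type and less RNA per cell cannot be told apart.

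The other 6 members did not pass in liver. Nr3c1 stood at 0.12 (SE 0.05, adjusted p = 0.107) with TMM and at -0.02 with library sizes alone, and Hsd11b1 at 0.16 (SE 0.07, adjusted p = 0.103). Fkbp5 (0.19, SE 0.14), Tsc22d3 (0.20, SE 0.14) and Zbtb16 (0.25, SE 0.18) had positive estimates within 2 SE of 0. Their widest SD minus CON values were at CT24. Zbtb16 held 25.5 and 34.1 CPM in CON and 61.3 and 91.0 CPM in SD at that time, and Tsc22d3 held 154 and 131 CPM against 237 and 203 CPM. The pairs did not overlap for either gene. Sgk1 (-0.06, SE 0.12) had 65.4 and 41.5 CPM in CON and 31.6 and 30.5 CPM in SD at CT4, and the reverse order at CT20 (31.8 and 33.6 CPM against 39.8 and 45.7 CPM). Its joint test gave an adjusted p of 0.117 in edgeR and 0.0109 in DESeq2.

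**Figure D3:**
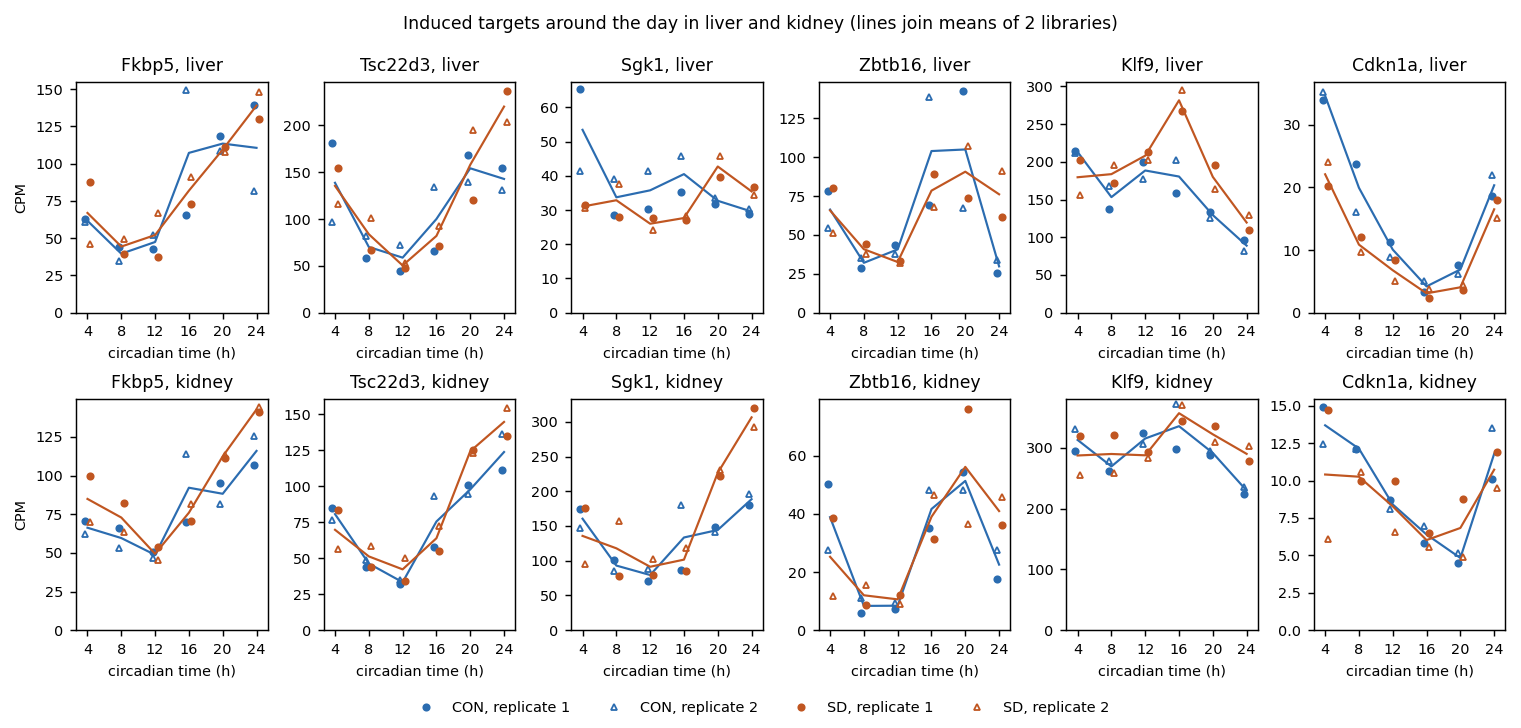
Levels of Fkbp5, Tsc22d3, Sgk1, Zbtb16, Klf9 and Cdkn1a against circadian time in hours in liver (top) and kidney (bottom), in CPM, with CON in blue, SD in orange, filled circles for replicate 1, open triangles for replicate 2 and lines through the means of 2 libraries. In liver the SD points of Klf9 at CT16 (268 and 295 CPM) lie above the CON points (159 and 202 CPM), and the SD line of Cdkn1a lies below the CON line at all 6 times.

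In kidney the receptor gene Nr3c1 had the smallest unadjusted p. Its CON libraries held 194 to 233 CPM (median 222) and its SD libraries 189 to 221 CPM (median 207). The fitted difference was -0.08 (SE 0.03, adjusted p = 0.206), with a value below 0 at 6 of 6 times. Hsd11b1 in kidney held 78.8 to 110 CPM in CON (median 96.03) and 91.8 to 127 CPM in SD (median 106), a difference of 0.13 (SE 0.06, adjusted p = 0.356). Neither passed the test. The leukocyte marker sum ran from 51.3 to 90.0 CPM in CON kidney (median 61.3) and from 32.6 to 51.6 CPM in SD kidney (median 42.8), and its part in the kidney values was not tested.

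The induced targets in kidney were read at the same 6 times. Sgk1, which in kidney serves sodium uptake, held 181 and 196 CPM in CON and 320 and 293 CPM in SD at CT24, and 148 and 141 CPM against 222 and 231 CPM at CT20. The SD pairs lay above the CON pairs at those times, while at CT16 the CON libraries held 86.2 and 181 CPM and the SD libraries 85.2 and 118 CPM. The average over time was 0.19 (SE 0.15, adjusted p = 0.634), and the joint test of the 6 times gave an adjusted p of 0.606. The sum of 2 collecting duct markers was 110 to 396 CPM in CON kidney (median 156). In SD kidney it was 137 to 346 CPM (median 214), and its part in the Sgk1 values was not tested. Fkbp5 averaged 0.15 (SE 0.09), Zbtb16 0.15 (SE 0.19), Tsc22d3 0.08 (SE 0.10), Klf9 0.05 (SE 0.06), Pdk2 0.02 (SE 0.04) and Cdkn1a -0.09 (SE 0.12). In the joint test 0 members passed in kidney (0.725% of all genes tested). In edgeR 0 members had an unadjusted p under 0.05, beside 2277 of 21528 genes, and DESeq2 called 0 members.

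In forebrain Sgk1 came nearest to a difference averaged over time, with 54.5 to 99.0 CPM in CON (median 75.8) and 59.9 to 133 CPM in SD (median 92.2). The SD mean was the higher at 6 of 6 times and the ranges overlapped. The difference was 0.30 (SE 0.11, unadjusted p = 0.0113, adjusted p = 0.746, edgeR). It was widest at CT20, with 70.6 and 59.6 CPM in CON and 115 and 133 CPM in SD. Cdkn1a (0.25, SE 0.16) and Hsd11b1 (-0.18, SE 0.16) followed in size, and the other 6 members lay between -0.11 and 0.09.

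In cerebellum Cdkn1a had the largest estimate, 0.25 (SE 0.10, unadjusted p = 0.0209, adjusted p = 0.907), with 7.23 to 14.9 CPM in CON (median 10.9) and 10.3 to 17.4 CPM in SD (median 12.3). Its lowest control was the CON CT8 replicate 1 library that stood apart, and without it the difference was 0.21 (SE 0.09). The 4 choroid plexus markers summed to 10.1 to 191.9 CPM in CON cerebellum (median 19.4) and to 16.8 to 331 CPM in SD (median 87.6), and their part was not tested. Fkbp5 followed at 0.21 (SE 0.15), and the other 7 members lay between -0.04 and 0.10. In the joint test 0 members passed in forebrain (0% of all genes tested) and 0 in cerebellum (0%). At an unadjusted p under 0.05 it held 2 members in forebrain (2743 of 23078 genes) and 0 in cerebellum (2036 of 22218). DESeq2 called 0 members in both tissues.

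**Figure D4:**
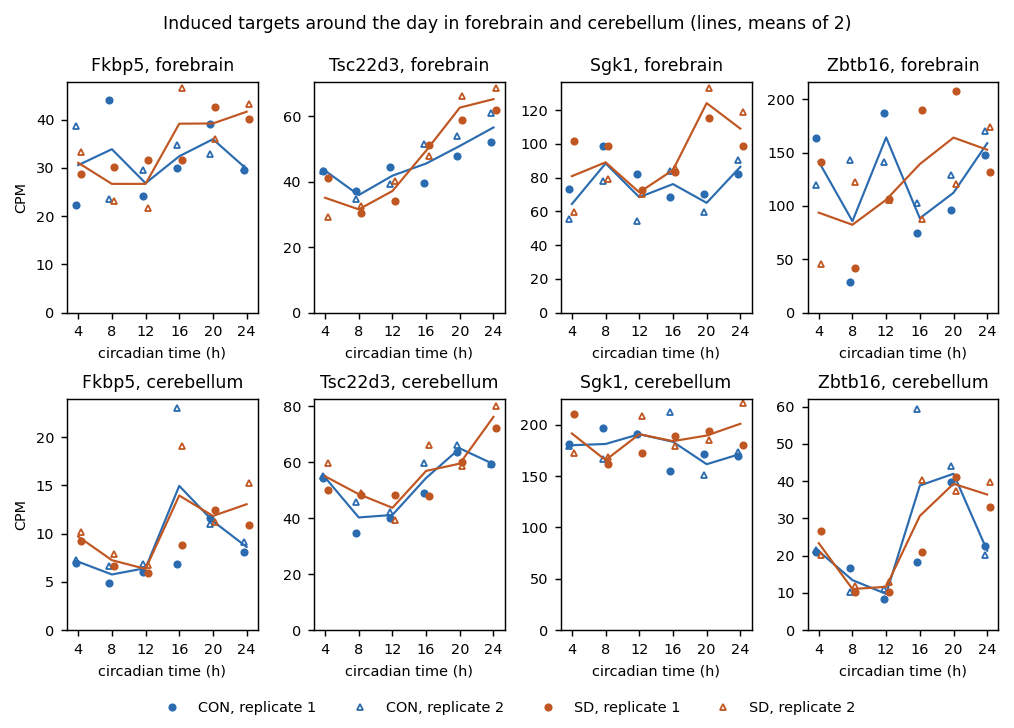
Levels of Fkbp5, Tsc22d3, Sgk1 and Zbtb16 against circadian time in hours in forebrain (top) and cerebellum (bottom), in CPM, with CON in blue, SD in orange, filled circles for replicate 1, open triangles for replicate 2 and lines through the means of 2 libraries. The SD points of forebrain Sgk1 at CT20 (115 and 133 CPM) lie above the CON points (70.6 and 59.6 CPM).

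Whether the SD difference itself differed between tissues was tested in all 96 libraries with the 3 tissue by condition terms. Of the 9 members 2 passed, Cdkn1a (adjusted p = 0.0243) and Klf9 (adjusted p = 0.0487), where 5.07% of all genes tested did. The liver value of Cdkn1a lay 0.69 below that of forebrain and 0.36 below that of kidney on the log2 scale. The liver value of Klf9 lay 0.37 above forebrain and 0.38 above kidney. With library sizes alone the adjusted p of Klf9 was 0.307, and without the cerebellum library that stood apart it was 0.0291. In that last fit Pdk2 passed as well (adjusted p = 0.0278). The other members had adjusted p values from 0.118 (Pdk2) to 0.971 (Fkbp5).

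The third comparison concerned the 24 h profile. Rhythms were tested in the 12 libraries of each tissue and condition with JTK_CYCLE, a rank test against cosine-ordered profiles, and with a cosine fitted in edgeR. JTK called Cdkn1a in CON liver (adjusted p = 0.0196), 1 of 9 members where 0.984% of all genes tested were called. In SD liver it called Cdkn1a (adjusted p = 0.0142) and Tsc22d3 (adjusted p = 0.00836), 2 of 9 members beside 5.24%. It called 0 members in CON kidney (0.246%) and SD kidney (0.251%), with 6 at an unadjusted p under 0.05 in each. In CON and SD forebrain and cerebellum it called 0 members (0% in each), with 1, 3, 3 and 3 members at an unadjusted p under 0.05.

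The edgeR cosine called more members. In CON liver it called Cdkn1a, Fkbp5 and Tsc22d3, 3 of 9 (9.13% of all genes tested), and in SD liver these and Zbtb16, 4 of 9 (12.9%). In CON kidney it called Cdkn1a, Fkbp5, Pdk2, Sgk1 and Tsc22d3, 5 of 9 (4.1%), and in SD kidney Fkbp5, Sgk1, Tsc22d3 and Zbtb16, 4 of 9 (1.94%). In forebrain it called 0 in CON (0.103%) and 0 in SD (0.00447%), and in cerebellum 0 in CON (0.00465%) and Zbtb16 in SD, 1 of 9 (0.0981%). Without the cerebellum CON library that stood apart, a fit added after the data were seen, Tsc22d3 was called in CON cerebellum. The share of all genes called in that fit is not given here, so the call does not tell Tsc22d3 from the rest.

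The times of the peaks fell into groups by gene. The cosine peak of Fkbp5 lay at CT20.7 in CON and CT21.6 in SD liver, and at CT21.8 and CT23.2 in kidney. Tsc22d3 peaked at CT23.0 and CT23.8 in liver and at CT22.8 and CT22.5 in kidney, and Sgk1 at CT23.5 and CT23.1 in kidney. These peaks lay in the later part of the active phase. Zbtb16 peaked at CT21.5 in SD liver, CT21.0 in SD kidney and CT21.5 in SD cerebellum. Cdkn1a peaked at CT4.36 in CON liver, CT4.03 in SD liver and CT5.32 in CON kidney, and Pdk2 at CT15.2 in CON kidney.

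The swings were wide in the peripheral organs. Cdkn1a in CON liver fell from 34.6 CPM at CT4 to 4.20 CPM at CT16, an 8.25-fold change between means of 2 libraries, and in SD liver from 22.1 to 3.08 CPM. Tsc22d3 in CON kidney rose from 33.3 CPM at CT12 to 124 CPM at CT24. Zbtb16 in CON kidney averaged 8.34 CPM at CT8 and 51.4 CPM at CT20, but neither method called a rhythm there. In SD liver Tsc22d3 rose from 50.4 CPM at CT12 to 220 CPM at CT24. Nr3c1, Hsd11b1 and Klf9 had no call in any tissue and condition by either method, and Nr3c1 varied by at most 1.26-fold between its highest and lowest time.

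The difference in rhythm between SD and CON was tested with the cosine and sine by condition terms. In edgeR 0 of 9 members passed in forebrain (0% of all genes tested), cerebellum (0%), liver (0%) and kidney (0%). At an unadjusted p under 0.05 there was 1 member in forebrain, 1 in cerebellum, 0 in liver and 0 in kidney. All genes at that threshold numbered 1390 of 23078, 2248 of 22218, 722 of 19708 and 874 of 21528, in the same order. The presence of Tsc22d3 among the JTK calls of SD liver only, and of Cdkn1a among the cosine calls of CON kidney only, is therefore not shown as a difference between conditions.

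The members also varied between replicates of the same time and condition. In each tissue the 12 differences of replicate 1 minus replicate 2, in log2(CPM + 1), of Fkbp5 were set against those of the other 8 members, 32 relations in all, with permutation tests. These tests, and those with markers below, take the 12 differences as independent. In forebrain the differences of same-numbered CON and SD libraries correlated over genes with r from -0.29 to 0.48, above 0.1 at 3 of 6 times. If such differences are related, the permutation p-values are too small. In forebrain Fkbp5 moved against the receptor gene Nr3c1, with Pearson r = -0.92 (permutation p = 2e-05, adjusted p = 0.00064) and Spearman rho = -0.87 (permutation p = 0.0007, adjusted p = 0.0112). Without the 2 farthest pairs r was -0.84. Fkbp5 also moved against Klf9 (r = -0.82, permutation p = 0.00106, adjusted p = 0.017; rho = -0.86, p = 0.00045; r = -0.77 without the 2) and against Cdkn1a (r = -0.78, permutation p = 0.00251, adjusted p = 0.0268; rho = -0.82, p = 0.00186; r = -0.74 without the 2). At CON CT8, for example, replicates 1 and 2 held 44.2 and 23.6 CPM of Fkbp5 but 122 and 170 CPM of Nr3c1.

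Markers of some cell types moved with these differences. The endothelium, erythroid, leukocyte and oligodendrocyte sums passed with none of Fkbp5, Nr3c1, Klf9 and Cdkn1a. With Fkbp5 their r was -0.05, 0.04, 0.03 and -0.36. The sum of 3 neuron markers, none of them at 0, was 2216 to 3315 CPM in CON forebrain (median 2990) and 2498 to 3284 CPM in SD forebrain (median 2930). Among 32 relations added after the data were seen, its replicate difference had r = -0.95 with that of Fkbp5 (rho = -0.94, permutation p = 5e-05; r = -0.90 without the 2 farthest pairs) and r = 0.93 with that of Nr3c1 (rho = 0.93, permutation p = 7e-05; r = 0.90). The permutation p was 1e-05 for both r, the smallest that the permutations can give, and the adjusted p 0.00016. The sum of 3 forebrain neuron markers, which ran from 96.1 to 250 CPM in CON forebrain, had r = -0.91 with Fkbp5 (permutation p = 5e-05, adjusted p = 0.0004, rho = -0.95 with permutation p = 1e-05, and r = -0.81 without the 2). With Nr3c1 its r was 0.88 (permutation p = 2e-05, adjusted p = 0.000213, rho = 0.86, and r = 0.85). With Klf9 its r was 0.72 (permutation p = 0.00524, adjusted p = 0.0186, rho = 0.83, and r = 0.68). With Cdkn1a its r was 0.70 (permutation p = 0.00845, adjusted p = 0.027, rho = 0.87, and r = 0.53). The neuron sum also moved with Klf9 (r = 0.82, permutation p = 0.00137, adjusted p = 0.00816, rho = 0.89, and r = 0.87 without the 2) and Cdkn1a (r = 0.76, permutation p = 0.00403, adjusted p = 0.0184, rho = 0.64, and r = 0.42).

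The sum of 4 choroid plexus markers, 1.72 to 25.6 CPM in CON forebrain (median 6.41) and 2.68 to 43.8 CPM in SD forebrain (median 7.10), moved against Klf9 (r = -0.81, permutation p = 0.00153, adjusted p = 0.00816, rho = -0.85, and r = -0.78 without the 2) and Nr3c1 (r = -0.75, permutation p = 0.00477, adjusted p = 0.0186, rho = -0.76, and r = -0.66), and with Fkbp5 (r = 0.70, permutation p = 0.011, adjusted p = 0.0319, rho = 0.64, and r = 0.61). The sum of 3 astrocyte markers moved against Fkbp5 (r = -0.69, permutation p = 0.0125, adjusted p = 0.0335, rho = -0.62) and with Nr3c1 (r = 0.68, permutation p = 0.0148, adjusted p = 0.0364, rho = 0.64), and without the 2 farthest pairs r was -0.43 and 0.42. For rho the adjusted p was 0.00216 for Klf9 with the neuron sum, 0.00407 for Klf9 and 0.0219 for Nr3c1 with the choroid plexus sum. It was 0.0755 for Cdkn1a with the neuron sum, for Fkbp5 with the choroid plexus sum and for Nr3c1 with the astrocyte sum, and 0.0834 for Fkbp5 with the astrocyte sum, so that these 4 relations did not pass by rho. The part of the dissected cell mixture in the Fkbp5 relations was not tested.

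**Figure D5:**
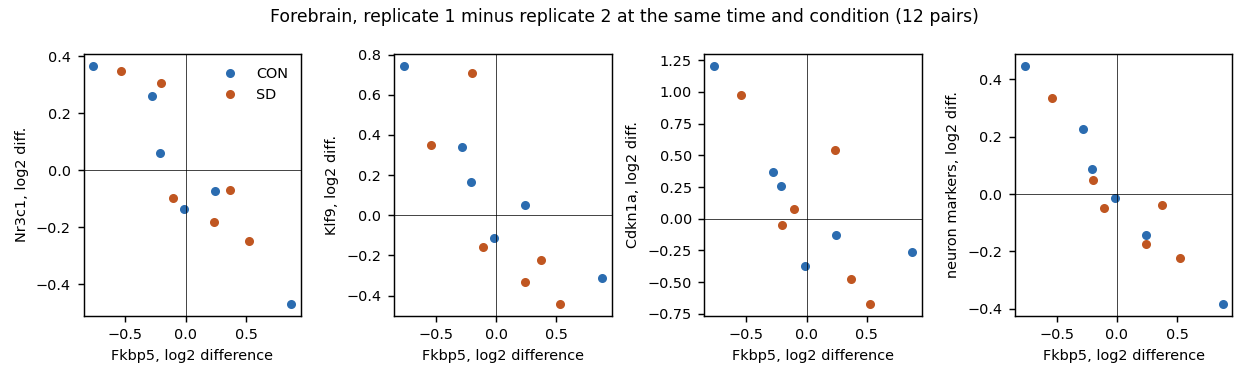
Replicate 1 minus replicate 2 of Nr3c1, Klf9, Cdkn1a and the sum of 3 neuron markers (vertical axes) against that of Fkbp5 (horizontal axes) in forebrain, in log2(CPM + 1), with 1 point for each of 12 pairs, CON in blue and SD in orange. The points descend from left to right for Nr3c1 (r = -0.92) and for the neuron markers (r = -0.95).

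In the other tissues 2 of the 24 relations passed. In kidney Fkbp5 moved with Klf9 (r = 0.74, permutation p = 0.00593, adjusted p = 0.038; rho = 0.64, p = 0.0292, adjusted p = 0.156; r = 0.60 without the 2 farthest pairs). In cerebellum it moved with Zbtb16 (r = 0.81, permutation p = 0.00508, adjusted p = 0.038; rho = 0.48, p = 0.12), and this rested on 2 pairs, since r was -0.10 without them. In liver 0 of 8 relations passed, and the largest r was 0.58, with Klf9 (permutation p = 0.0479, adjusted p = 0.139; rho = 0.55, p = 0.0665).

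A further 44 genes of the pathway, in 4 lists, were read in the same fit averaged over time. In liver 41 of them were tested, and 6 rose and 1 fell beside the 18.2% of all genes called. In forebrain 38 were tested, in cerebellum 38 and in kidney 41, and 0 passed in each. The median log2 difference over the tested list genes was 0.10 in liver, 0.04 in forebrain, 0.02 in cerebellum and 0.01 in kidney, beside medians over all genes of 0.01, 0.00, -0.01 and 0.01.

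Of 14 tested genes for receptor and hormone handling, 1 rose in liver: Srd5a1, a reductase that inactivates glucocorticoids, went from 53.2 ± 7.83 CPM in CON to 66.6 ± 6.12 CPM in SD (SD, n = 12 each), a log2 difference of 0.46 (SE 0.07, adjusted p = 0.000159). Its CON libraries ran from 38.9 to 64.0 CPM and its SD libraries from 55.1 to 75.1 CPM. Of 16 other induced targets 3 rose and 1 fell. Angptl4, an inhibitor of lipoprotein lipase, rose from 35.3 ± 21.9 to 59.0 ± 39.6 CPM (0.91, SE 0.22, adjusted p = 0.00611). Mfsd2a, a lipid transporter, rose from 4.50 ± 4.47 to 14.9 ± 19.95 CPM (1.39, SE 0.41, adjusted p = 0.0199), and Errfi1, a feedback inhibitor of the EGF receptor, from 724 ± 291 to 1015 ± 287 CPM (0.64, SE 0.18, adjusted p = 0.017). Zfp36, which destabilises inflammatory messenger RNA, fell from 36.7 ± 12.7 to 24.9 ± 8.61 CPM (-0.43, SE 0.15, adjusted p = 0.0482).

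Of 6 hepatic targets 1 rose, Pck1, which encodes a rate-limiting enzyme of gluconeogenesis (1169 ± 745 CPM in CON, 1650 ± 1031 CPM in SD; 0.73, SE 0.23, adjusted p = 0.0313). Of 5 tested genes for renal sodium transport 1 rose in liver, Scnn1a, a subunit of the epithelial sodium channel (33.4 ± 4.81 and 37.7 ± 7.00 CPM; 0.30, SE 0.07, adjusted p = 0.00284). CON and SD ranges overlapped for each of these 7 genes. With library sizes alone the calls of Errfi1 (adjusted p = 0.0504), Pck1 (0.0701) and Scnn1a (0.123) were lost. With DESeq2 those of Pck1 (0.087) and Zfp36 (0.0541) were lost, and both were also lost with a replicate block. Leaving out 1 library lost the call of Zfp36 in 14 of 24 fits, of Pck1 in 8 of 24 and of Mfsd2a in 1 of 24, that without CON CT24 replicate 1 (adjusted p = 0.0547).

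For each member, the genes most like it were sought as those with the highest Pearson r of log2(CPM + 1) over the 24 libraries of the tissue where its control level was highest. These libraries share their times, so the values are descriptions. In liver Fkbp5 was most like St3gal5 (r = 0.918), Por (0.892) and Ttll8 (0.889), Tsc22d3 most like Rap2a (0.887), Glrx (0.866) and Gde1 (0.866), Cdkn1a like Arntl (0.867), which encodes the clock protein BMAL1, and Lgalsl (0.866), and Hsd11b1 most like Mrpl58 (0.881), Hibadh (0.827) and Sucla2 (0.808). In kidney Pdk2 was most like Calcoco1 (0.938), Slc41a1 (0.914) and Nop53 (0.909), Klf9 most like Kcnf1 (0.80), Retreg1 (0.789) and Crbn (0.789), and Nr3c1 most like Mat2b (0.817), March6 (0.792) and Ttc39b (0.789). In forebrain Zbtb16 was most like Khdrbs3 (0.937), Nfix (0.925) and Satb1 (0.925), and in cerebellum Sgk1 was most like Wdr3 (0.774), Dtna (0.716) and Lpp (0.689).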

How the data were processed

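RNA of 4 tissues was sequenced from stranded total RNA libraries. According to the study's methods and processing notes, reads were trimmed with Trim Galore, aligned to GRCm38 with HISAT2, handled with SAMtools and counted per gene with reverse-stranded featureCounts, and the authors deposited raw counts. All 96 columns of the count table were matched to samples by title. CPM was the count over the column sum, scaled to CPM units, and RPKM divided this by the exon length. Tests used edgeR 4.0.16 (limma 3.58.1, R 4.3.3) with quasi-likelihood fits, TMM factors, filterByExpr and p-values adjusted by Benjamini and Hochberg's method across every tested gene, with a threshold of 0.05. Rhythms were tested with JTK_CYCLE on CPM and a 24 h cosine in edgeR. Replicate differences were tested with 100000 permutations, two-sided, on log2(CPM + 1). Alternatives were library sizes alone, RLE factors, no filter, a replicate block, DESeq2 1.42.0, a pseudocount of 0.1 and leaving out libraries. Scripts were tested on simulated data. Python 3.11.15, numpy 2.4.6, pandas 2.3.3, scipy 1.17.1 and matplotlib 3.10.9 were used.

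The text names the 9 members in every tissue, the pathway genes called in any tissue, and for each member the 3 protein-coding genes most like it among those with a mean of at least 1 CPM. Of these last, 1 gene is not reported here. The members, lists and tests were chosen with earlier results of these data known. Libraries held 24.8 to 58.5 M counts. Counting error adds to the differences between libraries of low genes such as Cdkn1a, which had 77 to 886 counts in SD liver. Replicates 1 and 2 of forebrain CON CT4 had 615 and 248 counts of Cdkn1a. The share of counting error in these differences was not tested.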

Additional observations from a re-analysis of the deposited data

Results flagged for a closer look

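The SD effect differed between the 4 tissues for Cdkn1a (adjusted p = 0.0243, edgeR, 3 tissue by condition terms), with log2 differences in each tissue's own fit of -0.46 in liver, 0.25 in forebrain, 0.25 in cerebellum and -0.09 in kidney. It also differed for Klf9 (adjusted p = 0.0487), with 0.42 in liver, 0.08 in forebrain, 0.00 in cerebellum and 0.05 in kidney. Both were picked out by this test of the difference itself.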

How the results depend on the processing

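In liver Klf9 (log2 0.28 to 0.48) and Cdkn1a (-0.60 to -0.41) were called in 29 of 29 alternatives and Pdk2 in 15 of 29. Leaving out 1 library at a time, 2 to 4 members were called in liver for the average over time (2 without CON CT8 replicate 1, 4 without SD CT16 replicate 1, which added Hsd11b1), 1 to 2 for the joint test in liver (2 without SD CT16 replicate 1) and 0 to 3 for the joint test in cerebellum. The 3 were Hsd11b1 (adjusted p = 0.0039), Cdkn1a (0.00465) and Pdk2 (0.0148), without CON CT8 replicate 2, which leaves the library that stood apart alone at its time and assumes that it varies like the other groups. Without the filter on low counts 6 members were called in liver for the average over time, beside 3741 of 32589 genes. The joint test without it called 1 in forebrain, 1 in cerebellum, 7 in liver and 5 in kidney. The rhythm difference without it called 1 in liver. In the fits without the filter the prior degrees of freedom were 13.6 or more, against 3.45 to 6.31 with the filter. The share of all genes called is not set beside the other alternatives here, so their counts do not tell the members from the rest. With library sizes alone the joint test called 3 members in liver (Klf9, Cdkn1a, Sgk1) and the test between tissues called 1 member (Cdkn1a); DESeq2 also called 3 in the joint test. JTK called 0 members in CON and SD liver with either replicate left out, which leaves 6 libraries. With 6 libraries its smallest possible p passes the adjustment only if most genes reach it, so these fits cannot decide about the liver calls. The edgeR cosine in place of JTK called 3 and 4 members in CON and SD liver, 5 and 4 in kidney, 1 in SD cerebellum and, without the library that stood apart, 1 in CON cerebellum. The 3 alternatives that leave out that library in the rhythm and level tests were chosen after seeing the data. Apart from the changes that these constructions make, the cause was not tested.

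Directions reversed for Nr3c1 in liver (-0.021 with library sizes alone). Among levels they reversed for Tsc22d3 in cerebellum against forebrain (-0.012) and Cdkn1a in kidney against cerebellum (0.054) without the filter, and with library sizes alone for Pdk2 (-0.63) and Klf9 (-0.63) in liver against cerebellum and Fkbp5 (0.021) and Nr3c1 (0.11) in kidney against liver. With 1 library left out the sign turned for Tsc22d3 (-0.036 to 0.042), Zbtb16 (-0.15 to 0.13) and Nr3c1 (-0.060 to 0.014) in forebrain, Klf9 (-0.022 to 0.035) and Pdk2 (-0.0018 to 0.088) in cerebellum and Sgk1 in liver (-0.099 to 0.016), none of them called.

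The replicate numbers were not used to pair CON and SD libraries in the main fits, and whether they pair them was not settled. The deviations of same-numbered libraries correlated above 0.1 in 3 of 6 pairs in cerebellum, 3 in forebrain, 3 in liver and 4 in kidney. Their r ran from -0.38 to 0.20 in cerebellum, -0.29 to 0.48 in forebrain, -0.18 to 0.19 in liver and -0.04 to 0.38 in kidney. The fit with a replicate block called 0 members in forebrain, cerebellum and kidney and 3 in liver, as without it, and 5, 0, 434 and 3436 of all genes. For all genes averaged over time DESeq2 called 17 in forebrain against 7 and 1 in cerebellum against 0, no filter 1043 in kidney against 495, and leaving out a library gave 3 to 9 in forebrain.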

Other observations

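A pattern chosen after the values were seen concerned CT16. Fkbp5 was higher in replicate 2 than in replicate 1 at CT16 in 8 of 8 pairs of tissue and condition, as were 0.86% of 12210 genes. In the CON pairs alone the log2 difference was 0.21 in forebrain, 1.61 in cerebellum, 1.18 in liver and 0.70 in kidney. Fkbp5, Sgk1, Tsc22d3 and Zbtb16 were each higher in CON CT16 replicate 2 in 4 of 4 tissues, as were 5.94% of the genes. Other times had such counts too: at CT8 Hsd11b1, Klf9, Nr3c1 and Pdk2 were each higher in CON replicate 2 in 4 of 4 tissues, as were 9.30% of the genes, and at CT4 Sgk1 was lower in replicate 2 in 8 of 8 pairs, as were 0.229% of the genes. The labels do not say whether tissues with the same replicate number came from the same mouse.

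Leaving out the CON CT16 replicate 2 library of a tissue gave the highest average SD minus CON value of all libraries left out for several members. These control libraries were chosen because members were high in them, so a higher value without them follows from the choice. Fkbp5 was then 0.36 in cerebellum, 0.30 in liver and 0.23 in kidney, and Zbtb16 0.22 in cerebellum and 0.36 in liver. Tsc22d3 was 0.29 in liver and 0.15 in kidney, and Sgk1 0.30 in kidney. None of these passed the test.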
